A study of Mus musculus with 4 samples.

Results

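The alpha and beta tubulin isotypes examined here are 10 genes, 4 encoding alpha tubulins (Tuba1a, Tuba1b, Tuba1c and Tuba4a) and 6 encoding beta tubulins (Tubb2a, Tubb2b, Tubb3, Tubb4b, Tubb5 and Tubb6). They were chosen by gene symbol, and all 10 were found among the 33565 genes of the files. RNA was measured in 3 mouse cell lines in 1 CapSeq experiment, a split-pool single-cell RNA-seq assay in which cells are held in hydrogel capsules and the first barcode (BC1) records the plate well and so the line. Neuro-2a (N2a) cells, a neuroblastoma line, were placed in plate columns 1 to 4. NIH/3T3 cells, an embryonic fibroblast line, were placed in columns 5 to 8, and mouse embryonic stem cells (mESCs) of the E14TG2a line in columns 9 to 12. N2a and NIH/3T3 cells were grown in DMEM with fetal bovine serum and penicillin-streptomycin. The mESCs were kept on gelatin in DMEM with fetal bovine serum, penicillin-streptomycin, sodium pyruvate, β-mercaptoethanol, L-alanyl-L-glutamine and non-essential amino acids, together with leukemia inhibitory factor, the GSK3 inhibitor CHIR99021 and the MEK inhibitor PD0325901. No line carried a stated genetic change. Culture medium and line cannot be told apart in comparisons with mESCs, whereas the stated medium was the same for N2a and NIH/3T3 cells.

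Cells with at least 1000 UMIs (unique molecular identifiers, 1 per captured transcript) and at most 20% mitochondrial UMIs were used, which left 2323 N2a cells, 2037 NIH/3T3 cells and 2137 mESCs. Their median depths were 6185, 4863 and 4803 UMIs. No cell barcode was shared between lines (0 barcodes), which the design sets, because BC1 assigns the line and is part of the barcode. Each line was 1 library, and the 32 BC1 wells of a line are parts of that library rather than replicates. The lines were compared by the size of their differences, without tests or p-values. The 95% intervals are exact Poisson intervals for levels, exact binomial intervals for shares and conditional exact intervals for ratios, and they cover counting error only. The lines matched their labels in 17 of 18 marker genes. Of the 6 N2a markers, 5 were highest in N2a cells, and the exception was Gata3, with 3.84 CPM (UMIs of the gene per 1000000 UMIs of the line) in N2a cells against 8.44 in mESCs. All 6 fibroblast markers and all 6 stem cell markers were highest in their own line. Like Gata3, some of the matching markers were under 10 CPM in their own line. These were Th (4.96 CPM) and Dbh (0.891 CPM) in N2a cells and Thy1 (5.98 CPM) in NIH/3T3 cells.

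Microtubules are built from heterodimers of 1 alpha and 1 beta tubulin. Mammals encode several isotypes of each, which are nearly identical in their folded bodies and differ most in short acidic C-terminal tails, where enzymes add or remove tyrosine and glutamate and where motors and microtubule-associated proteins bind. Most cells use a few widely expressed isotypes, whereas others mark neurons, blood cells or the testis. Tubulin mRNAs are also under autoregulation: when free heterodimers are abundant, TTC5 binds the start of the nascent tubulin chain on the ribosome and the mRNA is degraded.

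The coding ends are shown because they hold the tail in which most isotypes differ. They were read from the canonical GENCODE M39 transcripts on GRCm39, the build of the files, and each holds the last 20 codons and the stop codon, 63 bases in all, written from 5′ to 3′. Tuba4a is the alpha gene shown, with the last codon before the stop in capitals. It is a glutamate codon, and the product of Tuba4a lacks the encoded terminal tyrosine that most alpha tubulins carry.
Tuba4a: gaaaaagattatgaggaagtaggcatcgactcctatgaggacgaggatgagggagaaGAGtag

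In the beta genes shown, capitals mark every glutamate codon (GAA or GAG), of which Tubb4b had 10, Tubb5 had 9, and Tubb2a, Tubb2b and Tubb3 had 8 each. The ends of Tubb2a and Tubb2b differ in bases but encode the same amino acids.
Tubb2a: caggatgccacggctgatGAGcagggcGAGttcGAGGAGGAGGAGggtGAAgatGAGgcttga
Tubb2b: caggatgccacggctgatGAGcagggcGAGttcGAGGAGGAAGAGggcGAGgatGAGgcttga
Tubb3: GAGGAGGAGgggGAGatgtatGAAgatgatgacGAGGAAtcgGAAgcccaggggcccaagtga
Tubb4b: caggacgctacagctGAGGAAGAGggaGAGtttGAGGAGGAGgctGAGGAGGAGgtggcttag
Tubb5: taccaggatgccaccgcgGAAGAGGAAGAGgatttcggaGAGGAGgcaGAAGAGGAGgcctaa

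The first 4 codons are shown for 3 genes because they encode the stretch that TTC5 reads, with codons 2 to 4 in capitals. The fourth codon was TGC in Tuba4a and ATC in the 5 beta genes read.
Tuba4a: atgCGCGAGTGC
Tubb2b: atgCGAGAGATC
Tubb5: atgAGGGAAATC

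The coding sequences differ little within some groups, which bears on how reads are assigned. Tuba1a and Tuba1b had 98.3% identical bases, Tuba1b and Tuba1c 97.9%, Tuba1a and Tuba1c 97.1%, and Tubb2a and Tubb2b 96.5%. All other pairs within a family lay between 80.2% and 85.7%. Of the 89-base windows in the last 500 bases of the canonical transcript, 52.2% had an exact copy elsewhere in the genome for Tuba1a and 15.8% for Tubb4b, against 0 for the other 8 genes. Over the annotated protein-coding transcripts of at least 500 bases, this share ranged from 5.83% to 53.2% for Tuba1a and from 0 to 73.3% for Tuba1b. For Tubb2a the share ranged from 0 to 28.4% and for Tubb2b from 0 to 19.4%. Over the whole canonical transcript the share was 50.2% for Tuba1a, 43.4% for Tuba1c, 36.3% for Tuba1b and 33.4% for Tubb4b. For Tubb2a it was 27.0%, for Tubb2b 12.3%, for Tubb3 1.09% and for the rest 0. Reads within such windows cannot be placed at 1 site, and how the counting treated them was not tested. The levels of these genes relative to other genes, foremost Tuba1a and Tubb4b by the last 500 bases, are therefore uncertain. So are the alpha and beta shares given below.

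The genes lay at the following GRCm39 positions, each with 4 exons in its canonical transcript. Tuba1a, Tuba1b and Tuba1c form a cluster, at chr15:98847714-98851589 and chr15:98827738-98832493 on the minus strand and chr15:98927748-98936266 on the plus strand. Tuba4a lies at chr1:75189219-75196566 on the minus strand. Tubb2a (chr13:34257549-34261998) and Tubb2b (chr13:34307245-34315143) are neighbours on the minus strand. Tubb3 lies at chr8:124138163-124150092 on the plus strand, Tubb4b at chr2:25112170-25114714 and Tubb5 at chr17:36144809-36149198 on the minus strand, and Tubb6 at chr18:67523585-67536773 on the plus strand.

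Together the 10 genes gave 33381 UMIs in N2a cells, 16567 in NIH/3T3 cells and 29340 in mESCs. Their summed level was 1859 CPM (1839 to 1879) in N2a cells, 1416 CPM (1395 to 1438) in NIH/3T3 cells and 2381 CPM (2354 to 2408) in mESCs. Tubulin mRNA was thus highest in mESCs and lowest in NIH/3T3 cells, and the intervals did not overlap. Alpha genes took 34.1% of the tubulin UMIs in N2a cells (33.6% to 34.6%), 32.3% in NIH/3T3 cells (31.6% to 33.1%) and 29.9% in mESCs (29.4% to 30.4%). For each alpha UMI there were 1.93, 2.09 and 2.34 beta UMIs. When every cell was thinned to 1000 UMIs, the alpha share was 33.9% in N2a cells and 34.9% in NIH/3T3 cells. The order of these lines was thus not kept. The thinned shares come from a single random draw with fewer UMIs and have no intervals, so they do not settle the order. Nearly every cell held a tubulin UMI, 97.6% of N2a cells, 96.0% of NIH/3T3 cells and 97.6% of mESCs. The median cell gave 0.178%, 0.130% and 0.232% of its UMIs to the 10 genes. The 10th and 90th percentiles over cells were 0.0759% and 0.300% in N2a cells, 0.0474% and 0.237% in NIH/3T3 cells, and 0.112% and 0.367% in mESCs.

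**Figure D1:**
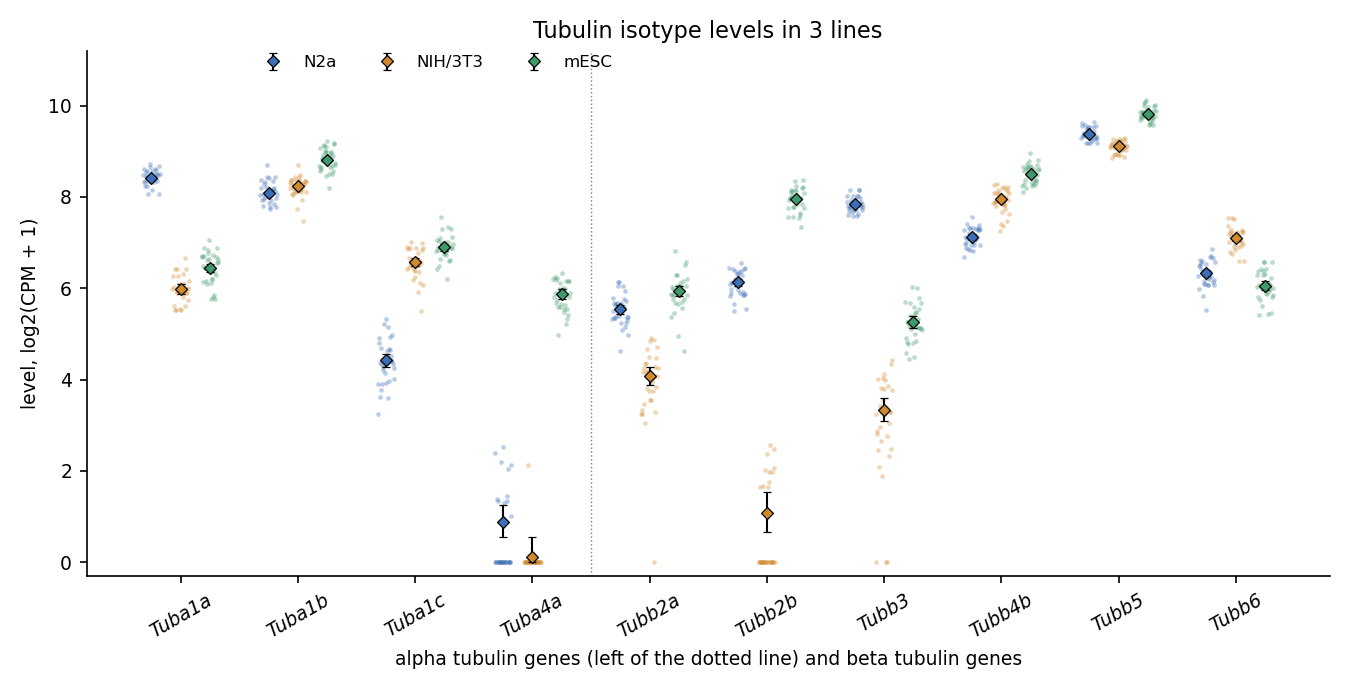
Level of each tubulin gene in N2a (blue), NIH/3T3 (orange) and mESC (green) cells, as log2(CPM + 1). Diamonds are the line's level over all cells with its exact Poisson 95% interval, and small dots are the 32 BC1 wells of the line. Tuba1a and Tubb3 sit highest in N2a cells, Tubb6 in NIH/3T3 cells and the other 7 genes in mESCs. Tuba4a is near 0 outside mESCs and Tubb2b near 0 in NIH/3T3 cells.

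Among the alpha genes, Tuba1a differed from the others in being highest in N2a cells. Tuba1a encodes the main alpha tubulin of developing neurons. Its level was 342 CPM (333 to 351) in N2a cells, 62.4 CPM (58.0 to 67.1) in NIH/3T3 cells and 85.9 CPM (80.8 to 91.2) in mESCs. The N2a wells lay between 265 and 424 CPM (median 346), the NIH/3T3 wells between 45.2 and 101 (median 61.1) and the mESC wells between 53.4 and 133 (median 89.7). Every N2a well was above every well of the other lines, while the wells of NIH/3T3 cells and mESCs overlapped. The ratio was 5.48 (5.07 to 5.92) against NIH/3T3 cells and 3.98 (3.73 to 4.25) against mESCs.

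Tuba1b, a widely expressed alpha tubulin of dividing cells, had with Tubb5 the narrowest range of the 10 genes over the lines. It had 271 CPM (264 to 279) in N2a cells, 301 CPM (291 to 311) in NIH/3T3 cells and 450.0 CPM (438 to 462) in mESCs. The wells overlapped in all 3 pairs, from 212 to 414 CPM in N2a cells, from 176 to 414 in NIH/3T3 cells and from 290.0 to 598 in mESCs. The mESC level was 1.66 times (1.60 to 1.73) that of N2a cells and 1.49 times (1.43 to 1.56) that of NIH/3T3 cells, and NIH/3T3 cells were at 1.11 times (1.06 to 1.16) the N2a level.

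Tuba1c, another broadly expressed alpha tubulin, was low in N2a cells. It had 20.4 CPM (18.4 to 22.6) there, 94.3 CPM (88.8 to 100.0) in NIH/3T3 cells and 118 CPM (112 to 125) in mESCs. The N2a wells reached 38.9 CPM at most, below the lowest well of NIH/3T3 cells at 44.2 and of mESCs at 72.2. Between NIH/3T3 cells and mESCs the wells overlapped, with medians of 92.8 and 119 CPM, and the ratio was 1.25 (1.16 to 1.36). Against N2a cells, NIH/3T3 cells were 4.61-fold higher (4.10 to 5.21) and mESCs 5.79-fold higher (5.16 to 6.51).

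Tuba4a, the alpha gene without a terminal tyrosine codon, was seen almost entirely in mESCs. It gave 712 UMIs there, or 57.8 CPM (53.6 to 62.2), with wells from 30.6 to 80.1 CPM. In N2a cells it gave 15 UMIs, or 0.835 CPM (0.468 to 1.38), and in NIH/3T3 cells 1 UMI, or 0.0855 CPM (0.00216 to 0.476). Every mESC well was above every well of the other lines, whose median wells were at 0. The mESC level was 69.2 times (41.7 to 124) the N2a level, and the ratio to the single NIH/3T3 UMI was 676 with an interval from 121 to 26735.

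The alpha pool therefore had a different leading gene in N2a cells. Tuba1a made up 53.9% (53.0% to 54.8%) of the alpha UMIs in N2a cells, 13.6% in NIH/3T3 cells and 12.1% in mESCs. Tuba1b was second in N2a cells with 42.7% (41.8% to 43.7%) and first in both other lines, with 65.8% in NIH/3T3 cells and 63.2% in mESCs. Tuba1c took 3.22%, 20.6% and 16.6% in N2a cells, NIH/3T3 cells and mESCs, and Tuba4a 0.132%, 0.0187% and 8.12%. The rank order of the 4 alpha genes was the same when CPM was divided by transcript length, where Tuba1a held 67.8% of the alpha CPM per kb in N2a cells, 20.8% in NIH/3T3 cells and 19.0% in mESCs. UMIs mark 1 end of a transcript, so the length-divided values are an alternative scale.

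**Figure D2:**
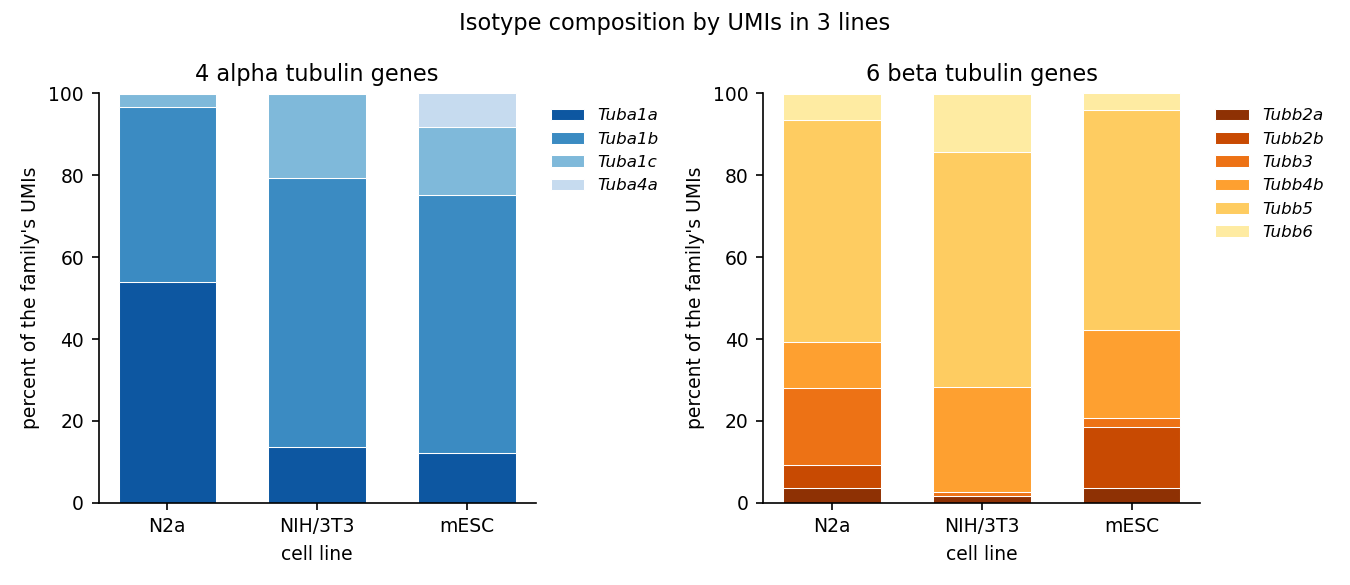
Composition of the alpha (left) and beta (right) tubulin UMIs in each line, as percent of the family's UMIs over all cells of the line. Tuba1a fills 53.9% of the alpha bar in N2a cells, where Tuba1b leads in the other lines. Tubb5 fills between 53.8% and 57.4% of each beta bar, and what lies beside it differs, with Tubb3 in N2a cells, Tubb4b and Tubb6 in NIH/3T3 cells, and Tubb4b and Tubb2b in mESCs.

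Among the beta genes, Tubb5, the widely expressed beta tubulin of dividing cells, was the most abundant in all 3 lines. It had 664 CPM (652 to 676) in N2a cells, 550.1 CPM (537 to 564) in NIH/3T3 cells and 898 CPM (882 to 915) in mESCs. The wells of N2a cells, from 575 to 794 CPM, overlapped those of both other lines. Those of NIH/3T3 cells, from 461 to 628, lay below those of mESCs, from 761 to 1112. Its share of the beta UMIs was 54.2% (53.5% to 54.8%), 57.4% (56.5% to 58.3%) and 53.8% (53.1% to 54.5%).

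Tubb4b, a broadly expressed beta tubulin that is also a major isotype of cilia, was lowest in N2a cells. It had 138 CPM (133 to 144) in N2a cells, 246 CPM (237 to 255) in NIH/3T3 cells and 360 CPM (349 to 371) in mESCs. The mESC wells, from 274 to 498 CPM, lay above all N2a wells, from 102 to 187, while NIH/3T3 wells, from 152 to 311, overlapped both. The ratio of mESCs to N2a cells was 2.60 (2.47 to 2.73), and that of NIH/3T3 cells to N2a cells 1.78 (1.68 to 1.87).

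Tubb3, the beta tubulin used as a marker of neurons, was highest in N2a cells. It had 229 CPM (222 to 236) in N2a cells, 9.15 CPM (7.50 to 11.1) in NIH/3T3 cells and 37.6 CPM (34.2 to 41.2) in mESCs. The wells of the lines were apart, from 191 to 285 CPM in N2a cells, from 0 to 20.5 in NIH/3T3 cells and from 20.9 to 64.2 in mESCs. The N2a level was 25.0 times (20.6 to 30.6) that of NIH/3T3 cells and 6.09 times (5.53 to 6.71) that of mESCs, and mESCs were 4.11-fold (3.32 to 5.12) above NIH/3T3 cells.

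Tubb2b, a beta tubulin of the developing nervous system, had the widest range of the 10 genes on the log2(CPM + 1) scale, where Tuba4a, with the larger ratios, came second. It had 247 CPM (238 to 256) in mESCs, 69.1 CPM (65.3 to 73.0) in N2a cells and, from 13 UMIs, 1.11 CPM (0.592 to 1.90) in NIH/3T3 cells. The wells did not overlap in any pair, from 160 to 331 CPM in mESCs, from 44.2 to 93.2 in N2a cells and from 0 to 4.96 in NIH/3T3 cells. The mESC level was 3.58 times (3.35 to 3.83) that of N2a cells and 222 times (130 to 418) that of NIH/3T3 cells, and N2a cells were 62.1-fold (36.2 to 117) above NIH/3T3 cells.

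Its neighbour Tubb2a, which encodes a closely similar beta tubulin abundant in brain, varied less. It had 45.5 CPM (42.4 to 48.7) in N2a cells, 15.9 CPM (13.7 to 18.4) in NIH/3T3 cells and 60.4 CPM (56.1 to 64.9) in mESCs. The wells overlapped in all 3 pairs, from 23.7 to 69.6 CPM, from 0 to 29.1 and from 23.8 to 112. N2a cells were 2.86-fold (2.44 to 3.37) and mESCs 3.80-fold (3.23 to 4.48) above NIH/3T3 cells. In mESCs and N2a cells Tubb2b therefore had the higher level of the pair as counted, and in NIH/3T3 cells Tubb2a had.

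Tubb6, a divergent beta tubulin with low levels in neural tissue, was the single gene with its highest level in NIH/3T3 cells. It had 79.7 CPM (75.6 to 83.9) in N2a cells, 136 CPM (130 to 143) in NIH/3T3 cells and 65.7 CPM (61.2 to 70.3) in mESCs. The NIH/3T3 wells, from 95.6 to 186 CPM, lay above those of mESCs, from 41.8 to 94.6, and overlapped those of N2a cells, from 45.0 to 114. The ratio of NIH/3T3 cells to mESCs was 2.07 (1.90 to 2.26) and fell below 2 when cells were thinned to 1000 UMIs. Against N2a cells it was 1.71 (1.59 to 1.84).

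After Tubb5, the order of the beta genes differed between lines. In N2a cells Tubb3 came second with 18.7% of the beta UMIs, before Tubb4b with 11.3%, Tubb6 with 6.51%, Tubb2b with 5.64% and Tubb2a with 3.71%. In NIH/3T3 cells Tubb4b had 25.6% and Tubb6 14.2%, and the other 3 genes had 1.66% (Tubb2a), 0.955% (Tubb3) and 0.116% (Tubb2b). In mESCs Tubb4b had 21.6% and Tubb2b 14.8%, followed by Tubb6 with 3.93%, Tubb2a with 3.62% and Tubb3 with 2.25%. Per kb of transcript, Tubb4b stood before Tubb3 and Tubb2a before Tubb2b in N2a cells, and Tubb2a before Tubb6 in mESCs, while the NIH/3T3 order was the same on both scales.

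Members past 2-fold were counted in each pair of lines and set beside the share of all genes past 2-fold, among genes with at least 10 CPM in either line. Between N2a and NIH/3T3 cells, 4 of 9 members (Tuba1a, Tubb2a, Tubb2b and Tubb3) were at least 2-fold higher in N2a cells, where 18.7% of all 10459 genes were. In the other direction it was 1 of 9 (Tuba1c), where 18.4% of all genes were. Tuba4a was under the minimum in both of these lines. Of the 10 members, 2 (Tuba1a and Tubb3) were higher in N2a cells than in mESCs, beside 22.4% of 10606 genes, and 4 (Tuba1c, Tuba4a, Tubb2b and Tubb4b) were higher in mESCs, beside 19.7%. NIH/3T3 cells exceeded mESCs for 1 member (Tubb6), beside 22.5% of 10519 genes, and mESCs exceeded NIH/3T3 cells for 4 (Tuba4a, Tubb2a, Tubb2b and Tubb3), beside 20.5%. Tuba4a in mESCs, and Tubb2b and Tubb3 in the pairs with NIH/3T3 cells, passed the minimum only through the line where they were high, so these counts are a description. The median log2 ratio of the members was 0.27 for N2a over NIH/3T3 cells, -0.58 for N2a cells over mESCs and -0.64 for NIH/3T3 cells over mESCs, beside 0.02, 0.05 and 0.05 over all tested genes. The member medians used ratios of CPM and those over all genes ratios of CPM + 1, so the 2 measures differ slightly.

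Shares of cells with a UMI are given at the cells' own depth, which was highest in N2a cells. Tubb5 was seen in 89.5% of N2a cells (88.2% to 90.7%), 83.4% of NIH/3T3 cells (81.7% to 85.0%) and 91.8% of mESCs (90.6% to 92.9%), and Tuba1b in 71.6%, 69.6% and 81.2%. For Tuba1b the N2a share was above that of NIH/3T3 cells although its level was below, and at 1000 UMIs per cell the order turned, with 23.3% in N2a cells and 27.0% in NIH/3T3 cells. Tuba1a was seen in 77.2% of N2a cells against 27.3% of NIH/3T3 cells and 33.2% of mESCs, and Tubb3 in 67.2% against 4.86% and 17.1%. Tubb4b was seen in 52.2%, 59.5% and 73.8% of N2a cells, NIH/3T3 cells and mESCs, and Tuba1c in 13.3%, 36.0% and 41.7%. Tubb2b was seen in 35.4%, 0.638% and 62.7%, Tubb2a in 25.7%, 8.20% and 26.3%, Tubb6 in 37.6%, 45.5% and 27.9%, and Tuba4a in 0.646%, 0.0491% and 24.7%. These shares depend on depth, and at 1000 UMIs per cell those of Tubb5 were 47.1%, 39.3% and 57.7%. The line with the highest share was the same at both depths for all 10 genes.

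**Figure D3:**
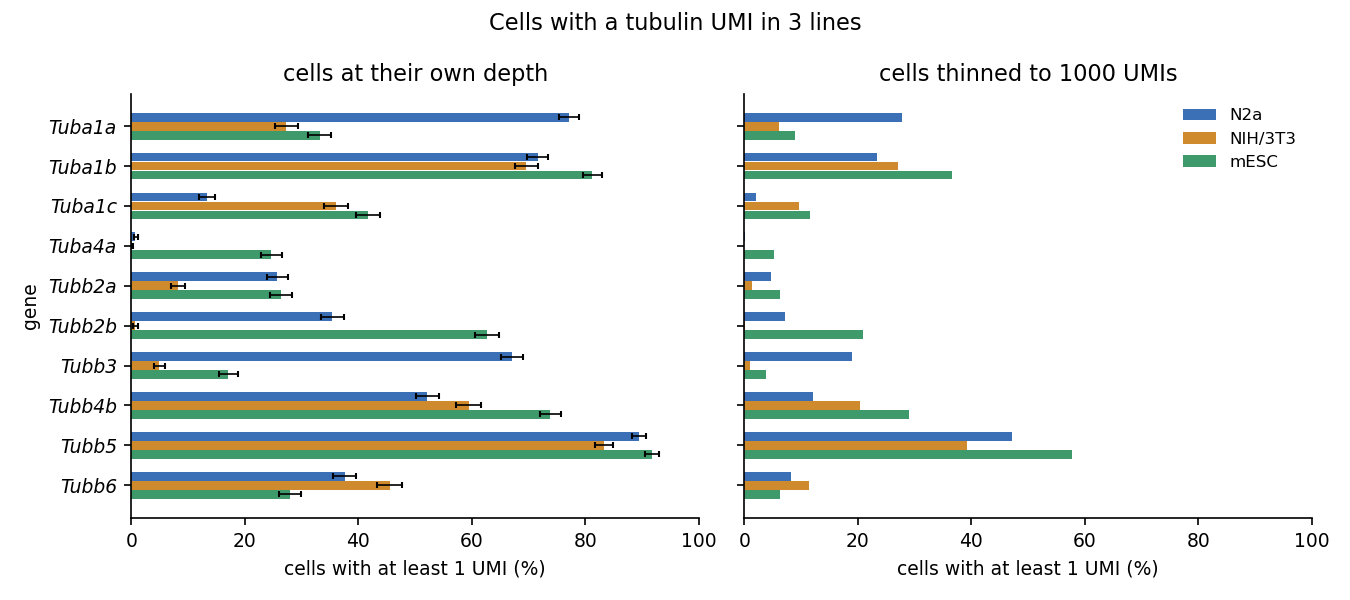
Percent of cells with at least 1 UMI of each gene, at the cells' own depth (left, with exact binomial 95% intervals) and after every cell was thinned to 1000 UMIs (right), in N2a (blue), NIH/3T3 (orange) and mESC (green) cells. Tubb5 reaches 91.8% of mESCs on the left and 57.7% on the right, and Tuba4a is above 1% of cells in mESCs alone.

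Genes that mark another line show how often UMIs of such genes were counted in cells of a line. BC1 was added before the lines were pooled, so these shares do not measure free RNA. Their source was not tested. In NIH/3T3 cells, at a median of 4863 UMIs, the 6 stem cell markers were seen in between 0.0491% (Pou5f1) and 6.04% (Dppa5a) of cells. In N2a cells, at a median of 6185 UMIs, the range was from 0.172% to 4.39%. The shares of Tuba4a in both lines and of Tubb2b in NIH/3T3 cells lay within these ranges. Pou5f1, at 57.8 CPM in mESCs like Tuba4a, was seen in 0.172% of N2a cells, where Tuba4a was seen in 0.646%. In NIH/3T3 cells both were seen in 0.0491%. The source of the Tuba4a and Tubb2b UMIs in these lines was not tested. Tubb3 in NIH/3T3 cells, at 4.86%, also lay below the 6.04% of Dppa5a, a gene far more abundant in its own line, with 1821 CPM in mESCs. The N2a marker Hand2, at 404 CPM in N2a cells and so more abundant than Tubb3 there, was seen in 0.638% of NIH/3T3 cells. The level of Tubb3 in NIH/3T3 cells was 4.00% of that in N2a cells, where that of Hand2 in its higher other line was 0.442%. The source of the Tubb3 UMIs in NIH/3T3 cells was not tested.

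The variation of tubulin UMIs between cells was set beside that of all genes. After thinning to 1000 UMIs, the variance of UMIs per cell divided by the mean, which is 1 for pure counting, was 1.11 for Tubb5 in N2a cells, 1.08 in NIH/3T3 cells and 1.13 in mESCs. Over the members with a mean of at least 0.05 UMIs per cell, the ratio ran from 0.977 to 1.11 for 7 members in N2a cells, from 0.980 to 1.09 for 6 in NIH/3T3 cells and from 0.994 to 1.13 for 9 in mESCs. The median of all genes with such a mean was 1.03, 1.03 and 1.04 and the 90th percentile 1.11, 1.11 and 1.12. Tubb5 lay just above the 90th percentile in N2a cells and mESCs, where its mean was 0.669 and 0.912 UMIs per cell. The genes beside it were not matched to it in level, and the part of level in the ratio was not tested. Thinned to 2000 UMIs, which left out shallower cells, the ratio was 1.20 for Tubb5 in N2a cells and 1.20 for Tubb4b in NIH/3T3 cells, beside medians over genes of 1.05 in both lines.

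Tubulin genes that peak in mitosis were sought within each line. Cells were ranked by the share of UMIs in a list of 53 G2/M genes that holds no tubulin, and the highest 20% (465 N2a cells, 407 NIH/3T3 cells and 427 mESCs) were compared with the rest. The score is continuous, and 391, 181 and 379 cells lay within 10% of the limit, so the classes are ranges rather than cell types. The summed tubulin level was 2176 against 1778 CPM in N2a cells, 1717 against 1329 in NIH/3T3 cells and 2578 against 2328 in mESCs, or 1.22, 1.29 and 1.11 times as high in G2/M-high cells. The median depth of the G2/M-high cells was 6246 against 6170.5 UMIs in N2a cells, 5410 against 4709.5 in NIH/3T3 cells and 5118 against 4759 in mESCs, and its part in these ratios was not tested.

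Tuba1c and Tubb4b gave the highest ratios in each line. Tuba1c had 33.0 CPM in G2/M-high N2a cells against 17.2 in the rest, a ratio of 1.92 (1.53 to 2.39). In NIH/3T3 cells it had 126 against 85.1 CPM, a ratio of 1.48 (1.30 to 1.69), and in mESCs 168 against 105 CPM, a ratio of 1.60 (1.43 to 1.79). Tubb4b had a ratio of 1.55 (1.42 to 1.69) in N2a cells, 1.68 (1.55 to 1.82) in NIH/3T3 cells and 1.35 (1.26 to 1.44) in mESCs. Tubb5 was at 1.35 (1.30 to 1.41), 1.30 (1.23 to 1.37) and 1.05 (1.00 to 1.10). Tuba1a, by contrast, stayed close to 1, at 1.00 (0.940 to 1.06), 0.942 (0.784 to 1.12) and 0.866 (0.739 to 1.01).

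At least 1.5-fold higher in G2/M-high cells were 2 of 9 members in N2a cells (Tuba1c and Tubb4b), beside 2.9% of 9400 genes. In NIH/3T3 cells it was 1 of 7 (Tubb4b), beside 4.21% of 9245 genes, and in mESCs 1 of 10 (Tuba1c), beside 2.24% of 9369 genes. No member was at least 1.5-fold lower (0 in each line), beside 2.3%, 2.66% and 2.22% of genes. When cells were ranked on part of their UMIs and the levels were taken from the others, Tuba1c in mESCs was at 1.43, under the limit, Tubb6 at 1.44 and Tubb4b at 1.32. With all UMIs, Tubb6 in mESCs was at 1.34 (1.14 to 1.56), close to Tubb4b. With the highest 10% of cells, both Tuba1c and Tubb4b were past the limit in NIH/3T3 cells.

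**Figure D4:**
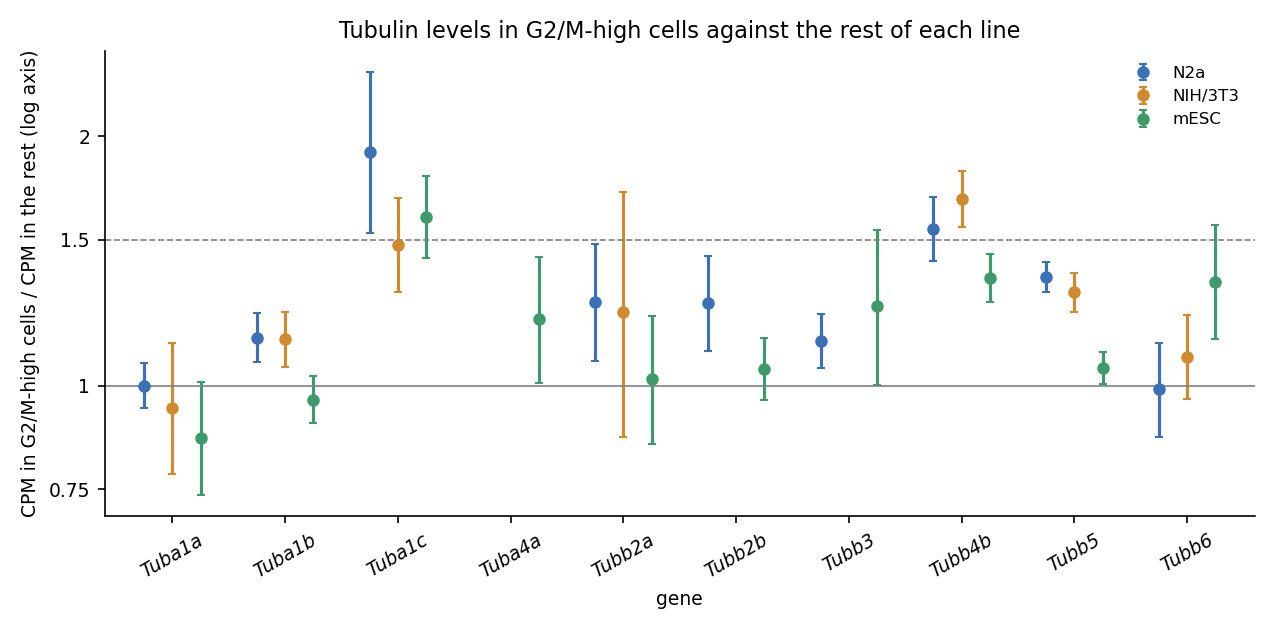
Ratio of the level in G2/M-high cells to the level in the rest of the line (log axis) for the members with at least 10 CPM in either class, in N2a (blue), NIH/3T3 (orange) and mESC (green) cells. Points are ratios and bars conditional exact 95% intervals of counting error, with lines at 1 (solid) and 1.5 (dashed). Tuba1c and Tubb4b lie highest, from 1.35 to 1.92, and Tuba1a lies between 0.866 and 1.00.

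Outside the 10 genes, 6 further alpha and beta tubulin genes were listed, and they held 0.397% of all alpha and beta tubulin UMIs in N2a cells, 0.0844% in NIH/3T3 cells and 2.24% in mESCs. Tuba3a, best known from the testis, was the only one with at least 10 CPM, at 52.5 CPM in mESCs (647 UMIs, 22.2% of cells) against 0.390 in N2a cells and 0.171 in NIH/3T3 cells. Its pattern over the lines was thus like that of Tuba4a. Tuba8 reached 6.52 CPM in N2a cells (117 UMIs), with 3 UMIs in mESCs and 0 in NIH/3T3 cells, which allows up to 0.256 CPM. Tubg1, the gamma tubulin that nucleates microtubules, had 112 CPM in N2a cells, 60.1 in NIH/3T3 cells and 47.2 in mESCs. Among the gamma tubulin complex genes, Tubgcp3 had 117, 52.8 and 45.0 CPM, Tubgcp5 63.1, 41.5 and 60.1, Tubgcp2 51.9, 49.8 and 64.2, Tubgcp4 29.7, 43.3 and 38.1, and Tubgcp6 29.7, 23.7 and 13.8. Tube1, the epsilon tubulin of centrioles, had 12.4, 14.6 and 14.6 CPM.

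For the 3 members with the widest range over the lines, the genes nearest in log2(CPM + 1) were sought by Euclidean distance over the 3 lines among 11365 genes. Nearest to Tubb2b were Zdbf2 (distance 0.54), Zfhx2 (0.65) and Bex1 (0.71). Nearest to Tuba4a were Ddc (0.12), Stk31 (0.17) and Npr3 (0.25), and nearest to Tubb3 were Slit3 (0.68), Zfp423 (0.80) and Dapk1 (0.85). With 3 lines, many genes share a pattern.

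Genes that fold tubulin differed between their highest and lowest line by 1.07-fold (Pfdn6) to 2.58-fold (Pfdn2). The list held 21 genes, the prefoldin subunits and chaperonin CCT that fold new tubulin, their partner Pdcl3, and the cofactors Tbca to Tbce with Arl2 that join alpha to beta. All 21 passed the minimum level, and 1 gene was past 2-fold in each direction of each pair. The shares of all genes given above, from 18.4% to 22.5%, are the background for this list and those that follow. Pfdn2, a prefoldin subunit, had 219 CPM in N2a cells, 84.8 in NIH/3T3 cells and 160.0 in mESCs. Pfdn5 had 257, 236 and 107 CPM, and Pfdn1 176, 200 and 417 CPM. Tbcc, the cofactor that triggers release of the heterodimer, had 16.3 CPM in N2a cells, 33.6 in NIH/3T3 cells and 21.7 in mESCs. The summed level of the list was 5413, 5166 and 5327 CPM.

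Of the 4 autoregulation genes, none was past 2-fold between N2a and NIH/3T3 cells in either direction (0 of 4). All 4 were highest in mESCs, where Ttc5 and Cnot10 were past 2-fold over N2a cells and Ttc5 and Cnot11 over NIH/3T3 cells. Ttc5, the reader of the nascent chain, had 52.0 CPM (48.1 to 56.2) in mESCs, 25.7 in N2a cells and 16.9 in NIH/3T3 cells. Scaper, the adaptor of TTC5, had 138, 81.8 and 97.4 CPM in the same order of lines. Cnot11 and Cnot10, which link it to the CCR4-NOT deadenylase, had 45.8 and 98.7 CPM in mESCs, 32.0 and 43.6 in N2a cells, and 19.7 and 53.5 in NIH/3T3 cells. Tubulin mRNA itself was also highest in mESCs.

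Among enzymes that modify tubulin, the count farthest above the share of all genes was that of N2a cells over mESCs, 8 of 16 beside 22.4%. Of 20 genes found, 3 of 15 tested were past 2-fold in N2a over NIH/3T3 cells and 1 the other way. Between N2a cells and mESCs it was 8 of 16 in N2a cells and 3 in mESCs, and between NIH/3T3 cells and mESCs 5 of 16 and 4. The tyrosine cycle was unevenly expressed: Ttl, which adds the terminal tyrosine, had 27.7 CPM in N2a cells, 4.96 in NIH/3T3 cells and 24.8 in mESCs. Vash2, an enzyme that removes it, had 25.8, 20.9 and 2.11 CPM, and its partner Svbp 10.5, 48.4 and 29.7 CPM. Among glutamylases, Ttll7 had 25.0, 40.4 and 1.62 CPM, and Ttll6 0.0557, 0.427 and 28.8 CPM. Agbl3, a deglutamylase, had 42.8, 35.4 and 8.68 CPM.

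The list of microtubule-associated proteins held genes that were highest in each of the lines. Of 22 genes, 20 passed the minimum in each pair. Past 2-fold were 6 in N2a over NIH/3T3 cells and 2 the other way, 8 in N2a cells over mESCs and 3 the other way, and 7 in NIH/3T3 cells over mESCs and 5 the other way. Map1b, an early neuronal protein, had 1560.0 CPM (1542 to 1578) in N2a cells, 304 in NIH/3T3 cells and 113 in mESCs, more in N2a cells than any tubulin gene. Map2, the dendritic protein, had 119, 0.171 and 1.87 CPM, and Mapt, which encodes tau, 93.1, 5.30 and 56.0 CPM. Dcx, another neuronal protein, gave 0 UMIs in N2a cells, and Mapre3, also known from neurons, was highest in NIH/3T3 cells, with 15.8 CPM against 8.02 in N2a cells. Map7, an activator of kinesin-1, had 13.5, 1.11 and 249 CPM. Dclk1, a doublecortin-like kinase, had 127, 107 and 1.95 CPM, and Camsap3, which binds minus ends, 4.73, 0.684 and 10.5 CPM.

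**Figure D5:**
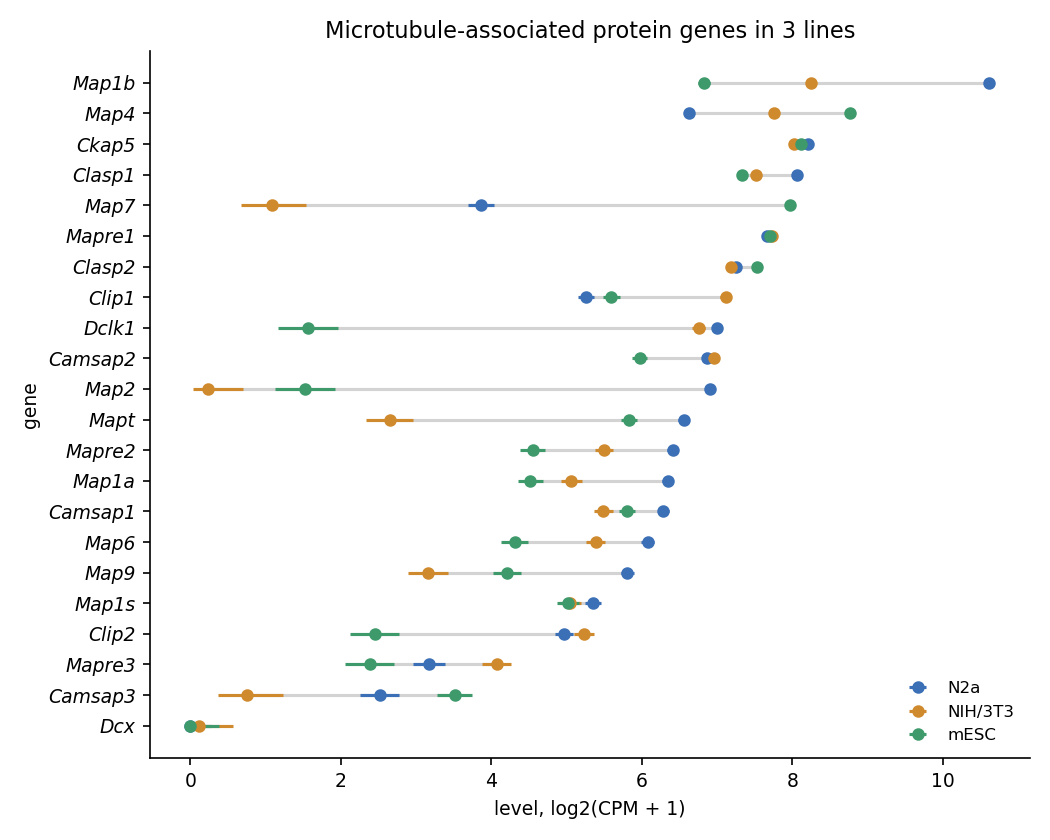
Levels of the 22 microtubule-associated protein genes as log2(CPM + 1) in N2a (blue), NIH/3T3 (orange) and mESC (green) cells, with exact Poisson 95% intervals and a grey line from the lowest to the highest line. Map1b lies highest at 1560.0 CPM in N2a cells, Mapre1 and Ckap5 lie at nearly the same level in all lines, and Map2, Map7 and Dclk1 span the widest ranges.

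The G2/M genes as a list were higher in mESCs and NIH/3T3 cells than in N2a cells, and so were Tuba1b, Tuba1c and Tubb4b. The G2/M-high ratios of Tuba1b were only 1.14, 1.14 and 0.963 in N2a cells, NIH/3T3 cells and mESCs. Tubb5, with ratios of 1.35, 1.30 and 1.05, was higher in N2a than in NIH/3T3 cells, at 664 against 550.1 CPM. Of 53 genes, 20 were past 2-fold in mESCs over N2a cells, beside 19.7% of all genes, and 0 the other way, beside 22.4%. In NIH/3T3 over N2a cells it was 10, close to the 18.4% of all genes, and 0 the other way, beside 18.7%. Between NIH/3T3 cells and mESCs, 3 were higher in the former and 6 in the latter, beside 22.5% and 20.5%. The 6 genes past 2-fold with the widest ratio were Gas2l3, Psrc1, Cdc20, Anln, Ccnb2 and Gtse1, from 6.87-fold to 3.57-fold between the highest and the lowest line. The summed level of the list was 8188 CPM in N2a cells, 10215 in NIH/3T3 cells and 11752 in mESCs. Its part in the levels of Tuba1b, Tuba1c, Tubb4b and Tubb5 between lines was not tested.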

How the data were processed

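RNA of 3 mouse cell lines was measured in 1 CapSeq experiment. The authors converted the sequencing output with bcl2fastq, split reads by BC1, trimmed the template switching oligo with Cutadapt, and ran STARsolo against GRCm39 and the GENCODE M30 annotation. The deposited values are UMI counts, neither normalized nor filtered for cells. How reads that map to several genes were treated is not given in the sources used here. The sample-resolved matrices held 20662884 (N2a), 13505027 (NIH/3T3) and 13875356 (mESC) UMIs, of which 17955221, 11697865 and 12322098 lay in the cells used.

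Counts were summed over the cells of a line and divided by their total (CPM). Doublets were not called. Where a line had 0 UMIs, up to 3 were allowed for. Ratios between lines were read against a size limit of 2-fold, and those between G2/M-high cells and the rest against 1.5-fold, among genes with at least 10 CPM in either group. The named genes were all 10 members in every line, other tubulin genes with at least 10 CPM in any line, up to 6 genes per list among those past 2-fold with the largest ratio, and the 3 nearest genes of the 3 members with the widest range. Tuba8, Scaper, Pfdn6, Dcx, Mapre3, Mapre1 and Ckap5 were named after their values were seen. Members, lists and markers were chosen with earlier results of these data known. Gene positions came from GENCODE M39, where 32953 of 33565 identifiers were found. Some coding sequences are not reported here. Copies of transcript windows were sought with blastn 2.17.0. Python 3.11.15, numpy 2.4.6, scipy 1.17.1 and pandas 2.3.3 were used. On simulated counts for N2a against NIH/3T3 cells, with 9662 genes, all 93 genes changed 4-fold were called past 2-fold. Of 107 genes given a change well under 2-fold, 0 were called. No change near the 2-fold limit was simulated, so this outcome was set by construction. It cannot speak to members whose ratios lie near the limit. The simulated counts held counting error only, so they cannot speak to variation between libraries. Alternatives changed the cell filter, the cells, the totals, the depth, the matrix, the limits and the length scale.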

Additional observations from a re-analysis of the deposited data

How the results depend on the processing

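The line in which each of the 10 genes was highest was the same under all 7 other choices of cells, totals, matrix or depth. With all barcodes, the summed tubulin level was 1881 CPM in N2a cells and 1451 CPM in NIH/3T3 cells. It was 1394 CPM in NIH/3T3 cells without the 5% of cells with most UMIs. With totals that left out mitochondrial and ribosomal protein genes it was 2053, 1611 and 2657 CPM in N2a cells, NIH/3T3 cells and mESCs. Thinned to 1000 UMIs per cell, it was 1389 CPM in NIH/3T3 cells and 2416 CPM in mESCs, with alpha shares of 34.9% and 30.6%. Per kb of transcript, alpha genes took 37.4%, 28.4% and 27.3% in N2a cells, NIH/3T3 cells and mESCs. The count of members higher in NIH/3T3 cells than in mESCs was 0 with thinned cells and 0 at a 4-fold limit. At that limit 1 member was higher in N2a cells than in mESCs and 2 the other way, and at 1.5-fold 3 were higher in NIH/3T3 than in N2a cells. In G2/M-high cells, 2 members were past the limit in NIH/3T3 cells with the highest 10% of cells, and 0 in mESCs with levels taken from UMIs not used to rank. The causes were not tested, beyond the limits and fewer UMIs that these choices set by construction. The higher alpha share of N2a over NIH/3T3 cells was not kept with thinned cells, at 33.9% against 34.9% from a single random draw without intervals. No paired analysis was possible because each line had 1 library. Depth limits Tuba4a outside mESCs and Tubb2b in NIH/3T3 cells, which rest on 15, 1 and 13 UMIs.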

Other observations

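Isotypes were seen together in single cells to different degrees. Tuba1a and Tubb3 both had a UMI in 57.6% of N2a cells, 1.37% of NIH/3T3 cells and 7.49% of mESCs. Tubb3 and Tubb2b were both seen in 28.6% of N2a cells and 13.2% of mESCs, and in 0 NIH/3T3 cells. Tuba1b and Tubb5, the widely expressed pair, were both seen in 68.2%, 62.0% and 77.6% of N2a cells, NIH/3T3 cells and mESCs, and neither was seen in 7.10%, 8.98% and 4.54%. The median cell held UMIs of 5 of the 10 genes in N2a cells, 3 in NIH/3T3 cells and 5 in mESCs. After thinning to 1000 UMIs these medians were 1, 1 and 2, with means of 1.51, 1.16 and 1.86. These shares follow depth and level and are given as values only.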
